A study of Rattus norvegicus with 13 samples.

Results

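The genes described here are the interferon response and MHC families of the rat. They comprise interferon regulatory factors (Irf), STAT factors, interferon-induced effectors (Isg15, Usp18 and the Ifi, Ifit, Ifitm, Gbp, Mx and Oas genes) and the genes of RT1, which is the rat major histocompatibility complex (MHC). They were picked by the first letters of their symbol, with no threshold on level. Earlier results of these data were known when the families were chosen. Of 14506 named genes 85 fitted. These were 14 transcription factors, 2 IRF2-binding proteins brought in by the prefix, 35 effectors, 26 MHC class I genes and 8 MHC class II genes. The classical class I gene RT1-A had no probe set of its own symbol alone and was not analysed here. The cells were grown from adult rats of the Sprague Dawley strain and passaged 2 times, with no treatment or genotype named in the labels. Skin-derived precursors (SKPs), dermal cells that grow as floating spheres, came from dorsal, facial and ventral skin with 3 independent isolates each, and mesenchymal stromal cells (MSCs), another adult mesenchymal cell, made up 4 isolates. Each isolate was measured on 1 Affymetrix Rat Gene 1.0 ST array. The sources used here do not say from which tissue the MSCs came, which media were used or whether animals were pooled.

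Interferons bind cell surface receptors whose JAK kinases phosphorylate STAT factors. STAT complexes and IRF proteins then enter the nucleus and bind short promoter motifs: the interferon-stimulated response element (ISRE) for IRF proteins and for STAT complexes that hold IRF9, and the gamma-activated site (GAS) for STAT dimers. Among the genes induced are antiviral effectors, feedback inhibitors such as Usp18, and the class I pathway, in which the immunoproteasome cuts peptides, the TAP transporter carries them into the endoplasmic reticulum, and class I heavy chains present them with beta-2 microglobulin. Class II molecules present peptides of endosomal origin and are made chiefly by macrophages, dendritic cells and B cells.

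Levels are log2 values, so a difference of 1 is 2-fold, and a gene was called where limma's adjusted p over all 14506 genes was under 0.05. Background was read from 1105 olfactory receptor genes, whose 75th percentile lay between 2.79 and 2.96 in the 4 groups, and 78 of the 85 genes had a mean above it in every group. Of 8 SKP markers, 5 (Crabp1, Twist1, Sox2, Pax3 and Ngfr) were higher in SKPs as a class than in MSCs and Snai2 was lower. Pax3 was high in facial SKPs alone, with a mean of 8.68, against 4.23 in dorsal SKPs, 4.02 in ventral SKPs and 4.34 in MSCs. Of 4 keratinocyte markers 0 were called. Dorsal array 3 stood apart in the SKP and stromal markers. The mean of the 8 SKP markers was 6.71 there, 7.90 to 8.52 on the other SKP arrays and 6.73 to 7.05 on MSC arrays. The mean of 8 stromal markers was 9.49, against 10.42 to 11.19 on the other 12 arrays. Of 25 measured macrophage and leukocyte markers, 19 were higher in facial SKPs than in MSCs, among them all 5 defining ones (Ptprc, Cd68, Tyrobp, Csf1r and Itgam), against 2 in ventral and 0 in dorsal SKPs. Their mean level was 6.87, 4.91 and 4.16 on dorsal arrays 1 to 3, 7.45, 6.09 and 9.49 on facial arrays, 5.04, 5.03 and 5.33 on ventral arrays, and 4.20 to 4.69 on MSC arrays. Of 7 endothelial markers 5 were higher in ventral SKPs, with means of 4.93 to 5.59 there, 3.65 to 4.34 on the other SKP arrays and 3.62 to 4.22 on MSC arrays. In cultures measured in bulk, fewer cells of a type and less RNA per cell cannot be told apart.

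SKPs as a class (the mean of the 3 regional means) differed from MSCs in 26 of the 85 genes, with 22 higher and 4 lower. That share of 30.6% stood beside 25.3% of all genes called in this comparison, and in all genes the directions were nearly even, with 13.1% called higher and 12.2% lower. The median difference was 0.19 over the 85 genes and -0.02 over all genes. Dorsal SKPs had 9 genes higher and 1 lower than MSCs, where 16.5% of all genes were called, 8.77% higher and 7.76% lower. Facial SKPs had 22 higher and 1 lower, where 19.0% of all genes were called, 9.47% higher and 9.58% lower. Ventral SKPs had 17 higher and 3 lower, where 24.4% of all genes were called, 13% higher and 11.4% lower. The arrays of both sides did not overlap in 13 of the 85 genes for SKPs against MSCs (12.6% of all genes), 22 for dorsal (22.5%), 31 for facial (30.1%) and 31 for ventral SKPs (37.9%), shares near those of all genes. These 3 comparisons share the MSC arrays. Leaving out facial array 3 took the facial count to 15, and leaving out ventral array 1 took the ventral count to 12. With the leukocyte marker mean as a covariate the facial count was 4. That mean did not overlap between facial SKPs (6.09 to 9.49) and MSCs (4.20 to 4.69). This fit therefore cannot tell leukocyte signal from a difference between the groups, and a call lost in it does not show its source. The count of 26 for SKPs as a class became 11 with that covariate and 14 with MSC arrays 3 and 4 left out. Called higher in all 3 regions were 8 genes: the transcription factor gene Irf1, the effectors Gbp2, Usp18 and Ifitm1, and the class I genes RT1-CE5, RT1-CE13, RT1-CE15 and RT1-M3-1. The same 8 were the ones that kept their call between SKPs and MSCs in each of the 23 alternative fits of that comparison. Within the regions, in every alternative fit, 4 of them kept the dorsal call (Gbp2, Ifitm1, Irf1 and RT1-M3-1) and 3 the facial call (Gbp2, Ifitm1 and Irf1). With the leukocyte covariate the facial calls that stayed were those of Gbp2, Gbp5, Ifitm1 and Irf1, and the facial call was lost for Usp18 (adjusted p = 0.14), RT1-CE5 (0.0686), RT1-CE13 (0.313), RT1-CE15 (0.35) and RT1-M3-1 (0.0917). Of the 26 genes called in SKPs as a class, 9 stayed called with it, namely the 8 named above and Gbp5. Of all 85, 53 were called in none of the 7 comparisons made.

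**Figure D1:**
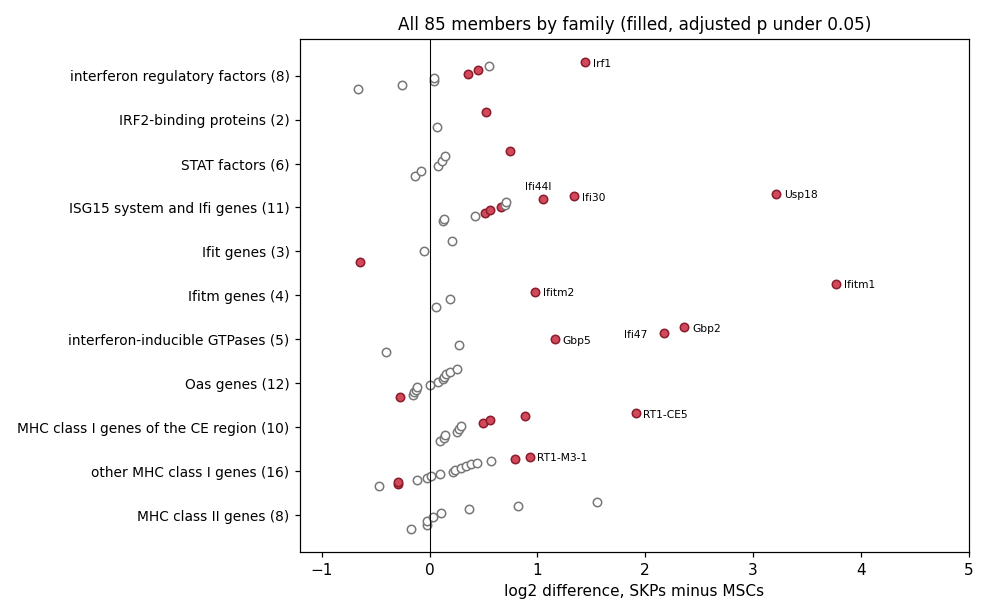
Log2 difference between SKPs and MSCs (x axis) for each of the 85 genes, placed by family (y axis, number of genes in parentheses), with filled points for an adjusted p under 0.05. The right-hand side holds 22 filled points, led by Ifitm1 at 3.77, and the left-hand side 4, and no Oas or class II gene is filled on the right.

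Promoter sequences from RefSeq (GRCr8) were at hand for 71 of the 85 genes and are shown for 8 to set genes that rose beside relatives that did not. Each line gives the 150 bases before the start of the gene, read 5′ to 3′ on its own strand. Capitals mark an ISRE (searched as GAAA, any 2 bases and GAAA on both strands, so that TTTC, any 2 bases and TTTC also counts), a GAS (TTCNNNGAA) or, in RT1 genes, a Y box (ATTGG on both strands), the element at which NF-Y binds MHC promoters. Irf1, Gbp2, Gbp5 and RT1-CE5 rose in SKPs, and Irf7, Ifit3, Oas1a and RT1-DMa did not.
Irf1: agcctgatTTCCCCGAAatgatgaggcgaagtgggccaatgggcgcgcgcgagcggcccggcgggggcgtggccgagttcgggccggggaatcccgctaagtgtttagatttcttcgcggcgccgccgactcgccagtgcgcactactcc
Gbp2: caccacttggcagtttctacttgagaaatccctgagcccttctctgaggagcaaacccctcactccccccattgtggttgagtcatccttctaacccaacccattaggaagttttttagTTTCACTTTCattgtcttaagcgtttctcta
Gbp5: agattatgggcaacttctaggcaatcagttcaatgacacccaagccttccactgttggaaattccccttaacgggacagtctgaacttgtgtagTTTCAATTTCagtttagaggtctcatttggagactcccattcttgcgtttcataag
Irf7: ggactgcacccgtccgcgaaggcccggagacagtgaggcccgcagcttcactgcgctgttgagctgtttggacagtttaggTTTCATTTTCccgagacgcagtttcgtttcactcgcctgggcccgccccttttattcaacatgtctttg
Ifit3: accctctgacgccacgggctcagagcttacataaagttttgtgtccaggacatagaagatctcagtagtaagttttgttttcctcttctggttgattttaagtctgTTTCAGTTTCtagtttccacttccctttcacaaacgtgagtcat
Oas1a: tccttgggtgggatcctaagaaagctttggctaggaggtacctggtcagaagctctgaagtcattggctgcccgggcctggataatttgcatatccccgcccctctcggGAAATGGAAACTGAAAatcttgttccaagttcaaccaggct
RT1-CE5: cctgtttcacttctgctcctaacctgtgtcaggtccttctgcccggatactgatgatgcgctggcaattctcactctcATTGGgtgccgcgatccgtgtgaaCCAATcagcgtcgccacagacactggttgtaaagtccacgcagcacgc
RT1-DMa: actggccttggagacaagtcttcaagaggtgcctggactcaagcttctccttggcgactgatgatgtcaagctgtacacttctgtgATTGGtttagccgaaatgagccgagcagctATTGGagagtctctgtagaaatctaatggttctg
The regions are chr10:38417785-38417934 (Irf1, plus strand), chr2:234005577-234005726 (Gbp2, plus), chr2:233910849-233910998 (Gbp5, plus), chr1:205800024-205800173 (Irf7, minus), chr1:241527176-241527325 (Ifit3, plus), chr12:41330316-41330465 (Oas1a, plus), chr20:3484091-3484240 (RT1-CE5, minus) and chr20:4712336-4712485 (RT1-DMa, minus). The run of capitals in Oas1a holds 2 overlapping ISRE matches. An ISRE match lay in the 250 bases before the start of 19 of 71 promoters (26.8%), against 3.41% of the 33469 promoters of the table. It was found in 7 of the 20 genes with a promoter that were higher than MSCs in at least 1 comparison (Gbp2, Gbp5, Ifi44l, Ifih1, Ifitm2, RT1-S2 and RT1-S3). It was also found in 12 of the other 51, among them Irf7, Ifit3, Oas1a, Oas1b and Oasl2. A GAS match was in 4 of the 20 (Irf1, Ifi47, Ifi44l and RT1-M3-1) and 7 of the 51, against 7.67% of all promoters. The Y box lay in 7 of 7 class II and 15 of 23 class I promoters, against 34.0% of all. A match is a description of the letters and not evidence that a factor binds there. The search took exact letters only, so a promoter without a match may still hold a variant of the motif.

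**Figure D2:**
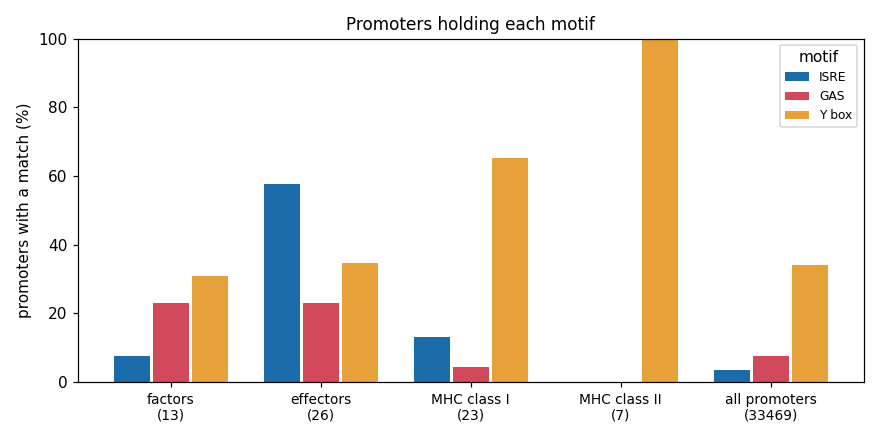
Share of promoters (y axis, percent) with at least 1 match to the ISRE, GAS or Y box in the 250 bases before the start, for 4 classes of the genes and for all 33469 promoters (x axis, number of promoters in parentheses). Effectors lead for the ISRE with 57.7% and class II genes for the Y box with 7 of 7.

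Among the transcription factors, Irf1, an activator induced by interferon gamma that drives class I genes, stood furthest apart. Its level was 7.66, 7.05 and 6.87 in dorsal SKPs, 7.50, 7.46 and 7.57 in facial SKPs and 6.94, 6.94 and 6.95 in ventral SKPs, against 5.84, 6.25, 5.58 and 5.42 in MSCs. Each SKP array lay above each MSC array, and the difference of 1.44 (SE 0.16, adjusted p = 5.51e-05, 2.72-fold) was called in all 3 regions, from 1.17 in ventral to 1.74 in facial SKPs. Irf2, which competes with IRF1 for the same sites, rose by less (0.44, SE 0.10, adjusted p = 0.00805), which was not called with the leukocyte covariate (0.37, adjusted p = 0.0994). It had 7.16, 7.20 and 7.57 in facial SKPs and 6.78, 6.78 and 7.04 in dorsal SKPs, and in ventral SKPs (6.63, 6.52 and 6.64) it overlapped with MSCs (6.59, 6.55, 6.20 and 6.58). Irf3, which nucleic acid sensors activate to switch on interferon beta, was 0.35 higher (SE 0.07, adjusted p = 0.00271), with SKP arrays at 7.47 to 7.91 and MSC arrays at 7.32 to 7.39. With the leukocyte covariate Irf3 was not called in SKPs as a class (adjusted p = 0.055) or in facial SKPs (0.202). Its dorsal call was lost in 7 of 24 alternative fits, among them those without dorsal array 1 (adjusted p = 0.0858) or MSC array 4 (0.0544).

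Irf7, the factor that amplifies type I interferon, did not follow Irf1. It had 5.61, 5.16 and 5.08 in dorsal SKPs, 5.61, 5.79 and 5.76 in facial SKPs and 5.18, 5.61 and 5.22 in ventral SKPs, against 6.78, 7.01, 5.39 and 5.28 in MSCs. The MSC isolates thus split into a high and a low pair, the low pair within the range of the SKPs, and the difference of -0.67 (SE 0.30) was not called (adjusted p = 0.131). It was -0.94 (adjusted p = 0.0375) without MSC array 4 and -1.45 (adjusted p = 0.000192) with MSC arrays 3 and 4 both left out. Irf9, the DNA-binding partner of STAT2, differed by 0.04 (SE 0.15, adjusted p = 0.889), with 6.39, 6.60 and 7.07 in dorsal SKPs, 6.81, 6.63 and 7.03 in facial SKPs and 7.16, 7.38 and 7.06 in ventral SKPs, against 7.19, 6.99, 6.73 and 6.56 in MSCs. Each SKP region overlapped with MSCs in Irf9, while all ventral arrays lay above all facial ones. Irf8, a factor of the macrophage lineage, stood at 7.02 on facial array 3 and at 3.97 to 5.17 on the other 12 arrays (facial SKPs minus MSCs 1.22, SE 0.51, adjusted p = 0.129). Facial array 3 also had the highest leukocyte marker mean, and the part of those cells in this value was not tested. Irf5 and Irf4 were not called in any comparison.

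Of the 6 STAT factors only Stat5a, which transmits cytokine and growth factor signals, was higher in SKPs as a class. It measured 7.60, 8.02 and 7.87 in dorsal SKPs, 8.23, 7.94 and 8.33 in facial SKPs and 8.39, 8.37 and 7.97 in ventral SKPs, against 7.74, 7.79, 6.58 and 7.21 in MSCs. MSC array 3 was the lowest of all, and the call (0.75, SE 0.20, adjusted p = 0.0174) failed when MSC array 4 was omitted (adjusted p = 0.0558). Stat2, which joins IRF9 in the complex that type I interferon activates, differed by 0.08 (SE 0.12, adjusted p = 0.711). Irf2bpl, one of the IRF2-binding proteins, was 0.52 higher (SE 0.14, adjusted p = 0.0183), which failed when MSC array 1 (0.0619) or 2 (0.0617) was omitted, and Irf2bp1 was not called.

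**Figure D3:**
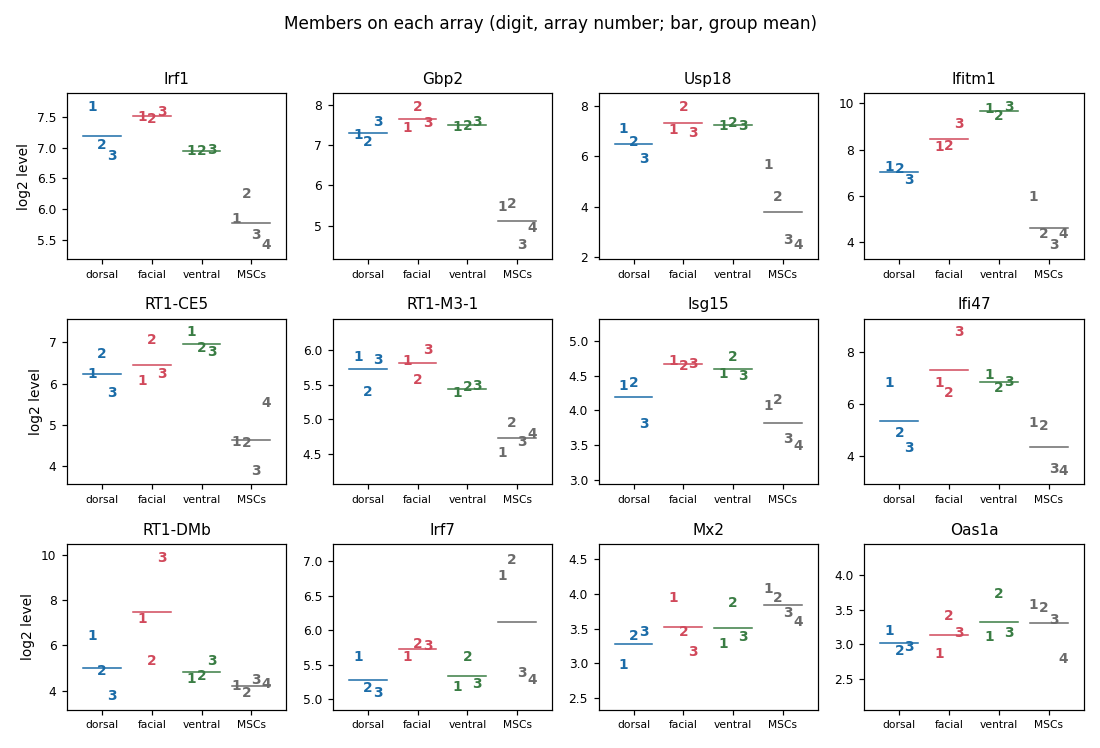
Log2 level (y axis) of 12 genes on each array, with digits for the array number, bars for the group mean, and dorsal, facial and ventral SKPs and MSCs along the x axis. In the top row the 9 SKP arrays lie above the 4 MSC arrays in each panel, RT1-DMb stands out on facial array 3, and MSC arrays 1 and 2 lie above arrays 3 and 4 for Irf7, Isg15, Ifi47 and Usp18.

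All 11 genes of the ISG15 and Ifi group had a positive difference between SKPs and MSCs, with a median of 0.67. Called were 6 of them, where 13.1% of all genes were called higher. Usp18, the protease that removes ISG15 from proteins and silences the type I interferon receptor, led them. It had 7.06, 6.54 and 5.88 in dorsal SKPs, 7.02, 7.95 and 6.92 in facial SKPs and 7.20, 7.33 and 7.21 in ventral SKPs, against 5.67, 4.38, 2.67 and 2.47 in MSCs. The groups did not overlap, but MSC arrays 3 and 4 were below the background level of 2.96, so the size of the difference is not resolved on their side (3.22, SE 0.51, adjusted p = 0.000621). Its dorsal call was lost without dorsal array 1 (adjusted p = 0.0524). Isg15 itself, the ubiquitin-like modifier, lay at 4.36, 4.40 and 3.80 in dorsal SKPs, 4.71, 4.64 and 4.68 in facial SKPs and 4.53, 4.77 and 4.50 in ventral SKPs, against 4.07, 4.15, 3.59 and 3.48 in MSCs. Facial and ventral arrays were all above the MSC arrays, dorsal array 3 was not, and the difference was 0.67 (SE 0.15, adjusted p = 0.00555). Uba7, the enzyme that activates ISG15 and no member of the families by symbol, was 1.09 higher (SE 0.20, adjusted p = 0.00162).

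Ifi30 encodes a lysosomal thiol reductase that unfolds antigens for class II loading. It measured 8.45, 7.13 and 7.56 in dorsal SKPs, 8.29, 7.71 and 9.88 in facial SKPs and 8.25, 7.73 and 8.39 in ventral SKPs, against 6.72, 6.95, 7.01 and 6.55 in MSCs. Each SKP array was above each MSC array, with facial array 3 highest (1.34, SE 0.35, adjusted p = 0.0137). With the leukocyte covariate Ifi30 was not called in SKPs as a class (0.46, adjusted p = 0.221) or in facial SKPs (0.03, adjusted p = 0.981), nor with MSC arrays 1 and 2 (0.0804 and 0.0561) or 3 and 4 (0.0935 and 0.0621) left out. The ventral call (adjusted p = 0.0498) was lost without dorsal array 3, facial array 1, any ventral array or any MSC array (0.0542 to 0.156). Ifi44l, a gene of the interferon signature, was highest in ventral SKPs, with 6.17, 5.37 and 5.13 there, 4.96, 5.06 and 3.76 in dorsal SKPs and 3.71, 4.13 and 4.43 in facial SKPs, against 4.18, 3.78, 3.52 and 3.29 in MSCs. Ventral SKPs did not overlap with any other group, and facial SKPs overlapped with MSCs. The ventral difference was 1.86 (SE 0.35, adjusted p = 0.00229), and that of SKPs as a class, 1.05 (SE 0.28, adjusted p = 0.0144), was lost without MSC array 4 (0.92, adjusted p = 0.0569). Ifih1 (MDA5), a cytosolic sensor of double-stranded RNA, had 6.70 to 7.30 on SKP arrays and 6.0 to 6.58 on MSC arrays (0.56, SE 0.12, adjusted p = 0.00472). Its ventral call was lost without ventral array 1 or 2 or MSC array 3 or 4 (adjusted p of 0.0551 to 0.158). Ifi35 was 0.51 higher (SE 0.15, adjusted p = 0.027), which failed when MSC array 3 (0.0962) or MSC array 4 (0.0875) was omitted. Ifi27 and Ifi44, 2 widely used interferon signature genes, were not called (0.42 with adjusted p = 0.0809, and 0.70 with adjusted p = 0.134).

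The Ifitm genes encode small membrane proteins that block the fusion of viruses with cells, and Ifitm1 showed the largest difference of all 85 genes. It had 7.25, 7.15 and 6.67 in dorsal SKPs, 8.10, 8.17 and 9.10 in facial SKPs and 9.77, 9.45 and 9.84 in ventral SKPs, against 5.93, 4.33, 3.87 and 4.33 in MSCs. No 2 of the 4 groups overlapped, and the order ran ventral, facial, dorsal, MSCs. Differences from MSCs were 5.07 in ventral (SE 0.42, adjusted p = 6.75e-06, 33.6-fold), 3.84 in facial (SE 0.42, adjusted p = 6.87e-05) and 2.41 in dorsal SKPs (SE 0.42, adjusted p = 0.00209). Dorsal SKPs were 2.66 below ventral ones (difference -2.66, SE 0.44, adjusted p = 0.00633), while facial SKPs were not called against dorsal (1.43, adjusted p = 0.176) or ventral ones (-1.23, adjusted p = 0.126). Endothelial markers were also highest in ventral SKPs, and their part in the result was not tested.

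Ifitm2 had 10.26, 10.25 and 9.04 in dorsal SKPs, 10.46, 10.47 and 10.63 in facial SKPs and 11.26, 10.67 and 11.06 in ventral SKPs, against 9.63, 9.73, 9.12 and 9.42 in MSCs. Dorsal array 3 lay below all MSC arrays and the other 8 SKP arrays above them (0.98, SE 0.22, adjusted p = 0.00541). Its facial call was lost without facial array 2 (adjusted p = 0.0511) or facial array 3 (0.0701). Ifitm3, the best known of the antiviral members, was at 8.54 on dorsal array 3, at 11.04 to 11.80 on the other SKP arrays and at 11.39, 11.14, 10.11 and 10.76 on MSC arrays, and was not called (0.19, SE 0.41, adjusted p = 0.783). Ifitm5, known from bone cells, was not called either.

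Of the 5 interferon-inducible GTPases the Gbp genes and Ifi47 rose and the Mx genes did not. Gbp2, a guanylate-binding protein that attacks vacuoles of intracellular pathogens, had 7.25, 7.07 and 7.58 in dorsal SKPs, 7.43, 7.94 and 7.56 in facial SKPs and 7.44, 7.47 and 7.58 in ventral SKPs, against 5.46, 5.55, 4.51 and 4.94 in MSCs. The 9 SKP arrays lay within a narrow band above all MSC arrays (2.36, SE 0.18, adjusted p = 3.02e-06, 5.15-fold), and no 2 regions differed in it (adjusted p of 0.56, 0.795 and 0.714). Gbp5, which promotes inflammasome assembly, measured 5.78, 6.46 and 7.08 in dorsal SKPs, 6.60, 7.09 and 6.86 in facial SKPs and 5.69, 5.99 and 6.11 in ventral SKPs, against 4.62, 4.53, 5.66 and 6.17 in MSCs. Here MSC arrays 3 and 4 were the high pair and reached the SKP range, and the call (1.16, SE 0.31, adjusted p = 0.0154) was lost without MSC array 1 (0.0584) or MSC array 2 (0.0603). The facial call of Gbp5 (1.60, adjusted p = 0.0141) was lost without facial array 2 (0.0541).

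Of the GTPases, Ifi47, an immunity-related one, varied most within the regions. Its level was 6.81, 4.91 and 4.32 in dorsal SKPs, 6.79, 6.44 and 8.76 in facial SKPs and 7.10, 6.63 and 6.84 in ventral SKPs, against 5.27, 5.14, 3.51 and 3.44 in MSCs. Dorsal arrays 2 and 3 lay within the MSC range and all facial and ventral arrays above it (2.17, SE 0.55, adjusted p = 0.0121). The call of Ifi47 in SKPs as a class was lost with the replicate number as a block, the leukocyte covariate or MSC arrays 3 and 4 left out (highest adjusted p of 0.214). Its facial call was lost without facial array 3 (2.27, adjusted p = 0.0521), with the leukocyte covariate (0.9) and with MSC arrays 3 and 4 left out. Its ventral call was lost without ventral array 1 or 3 or MSC array 3 or 4 (0.0521 to 0.072). It was also lost with the replicate block or MSC arrays 3 and 4 left out (highest 0.165). The Mx genes encode dynamin-like GTPases that trap viral components and rank among the most induced genes of a type I interferon response. Mx1 had 3.34, 3.36 and 3.44 in dorsal SKPs, 2.89, 3.58 and 3.36 in facial SKPs and 3.78, 3.78 and 3.33 in ventral SKPs, against 3.20, 3.11, 3.29 and 3.04 in MSCs (0.27, SE 0.13, adjusted p = 0.147). Mx2 had 2.98, 3.39 and 3.45 in dorsal SKPs, 3.94, 3.46 and 3.16 in facial SKPs and 3.27, 3.88 and 3.37 in ventral SKPs, against 4.07, 3.94, 3.72 and 3.60 in MSCs (-0.40, SE 0.16, adjusted p = 0.1). Both overlapped between SKPs and MSCs, and both were called only without facial array 1 (Mx1 0.34, adjusted p = 0.0356, and Mx2 -0.47, adjusted p = 0.041).

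Neither the Ifit nor the Oas family rose. The Ifit proteins bind viral RNA that lacks host cap marks, and Ifit2 fell in SKPs: it had 5.89, 6.07 and 6.92 in dorsal SKPs, 6.30, 6.83 and 6.81 in facial SKPs and 6.90, 6.87 and 6.84 in ventral SKPs, against 7.12, 7.32, 7.08 and 7.46 in MSCs. All SKP arrays lay below all MSC arrays (-0.64, SE 0.17, adjusted p = 0.0172). The call was lost in 5 of 23 alternative fits. These were MSC array 4 omitted (adjusted p = 0.0635), MSC arrays 1 and 2 or 3 and 4 left out, the replicate number as a block and the leukocyte covariate (0.211). Ifit3 was at 3.03 to 3.54 on SKP arrays and 2.94 to 3.57 on MSC arrays (-0.05, adjusted p = 0.818), and Ifit1 was below background in all 4 groups. The Oas genes make 2-5A, the second messenger that activates the RNA-cutting enzyme RNase L. Of 12 Oas genes, 0 were higher and 1, Oas1h, was lower (-0.27, SE 0.08, adjusted p = 0.0288), and the family's median was 0.04. Oas1h lay near background, and its call was lost without ventral array 2 or 3 or MSC array 2, 3 or 4 (adjusted p of 0.0525 to 0.103). Oas1a, with 3.19, 2.90 and 2.96 in dorsal SKPs, 2.85, 3.41 and 3.16 in facial SKPs and 3.11, 3.72 and 3.16 in ventral SKPs, against 3.57, 3.52, 3.35 and 2.78 in MSCs, showed no order of the groups. Oas1f was 0.28 lower in ventral SKPs (difference -0.28, adjusted p = 0.0224), a call lost without ventral array 1 or 3 or MSC array 2 (0.0535 to 0.0914).

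Of the 26 MHC class I genes, 6 were called higher in SKPs, 2 lower and 18 not, beside 13.1% of all genes called higher and 12.2% lower. The share called in either direction was near the 25.3% of all genes. All 10 genes of the RT1-CE region, a cluster of class I genes on chromosome 20, had a positive difference, and 4 of 10 were called, with a median of 0.28. These loci are near-identical copies, so probes of one may read RNA of another and the values of single loci are uncertain. RT1-CE5 had 6.23, 6.72 and 5.77 in dorsal SKPs, 6.06, 7.06 and 6.24 in facial SKPs and 7.24, 6.87 and 6.77 in ventral SKPs, against 4.58, 4.56, 3.88 and 5.53 in MSCs. The groups did not overlap, though MSC array 4 at 5.53 came close to dorsal array 3 at 5.77 (1.91, SE 0.29, adjusted p = 0.000437, 3.76-fold). RT1-CE13 had 6.16, 5.88 and 5.76 in dorsal SKPs, 6.19, 6.02 and 6.53 in facial SKPs and 6.37, 6.13 and 6.60 in ventral SKPs, against 5.58, 5.20, 5.21 and 5.19 in MSCs. Again no array overlapped (0.89, SE 0.13, adjusted p = 0.000358), and the dorsal call was lost without dorsal array 1 (adjusted p = 0.0768) or MSC array 4 (0.0507). RT1-CE15 was 0.49 higher (SE 0.09, adjusted p = 0.00182), with 7.92 to 8.34 on SKP arrays and 7.46 to 7.77 on MSC arrays. Its dorsal call was lost without dorsal array 1 (0.0536) and its ventral call without ventral array 1 or 3 or MSC array 2 or 4 (0.0548 to 0.0942). RT1-CE7 was 0.56 higher (SE 0.17, adjusted p = 0.0297), which failed on omitting ventral array 3 or MSC array 3 or 4 (0.0553 to 0.105).

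The 16 other class I genes were mixed, with 2 higher and 2 lower. RT1-M3-1, the rat counterpart of the mouse molecule that presents formylated bacterial peptides, had 5.90, 5.40 and 5.86 in dorsal SKPs, 5.84, 5.57 and 6.01 in facial SKPs and 5.37, 5.46 and 5.47 in ventral SKPs, against 4.51, 4.95, 4.67 and 4.79 in MSCs. Every SKP array exceeded every MSC array, and the call (0.93, SE 0.12, adjusted p = 0.000144) was also made in each region, the facial one not with the leukocyte covariate (0.0917). RT1-S3, a non-classical class I gene, had 4.52, 4.16 and 4.35 in dorsal SKPs, 4.44, 4.43 and 5.0 in facial SKPs and 5.27, 5.31 and 5.90 in ventral SKPs, against 4.27, 4.12, 4.04 and 3.69 in MSCs. Its ventral arrays lay above all others (1.47 above MSCs, SE 0.20, adjusted p = 0.000291), and dorsal SKPs were lower than ventral ones (-1.15, SE 0.21, adjusted p = 0.0103). RT1-T18 fell by 0.29 (difference -0.29, SE 0.08, adjusted p = 0.0216), which failed when MSC array 4 was omitted (0.0849). RT1-M10-1 fell by as much (-0.29, SE 0.10, adjusted p = 0.0427) near background, and 9 of the 13 arrays ended that call when left out (0.0516 to 0.133). RT1-M6-1 in facial SKPs (0.64, adjusted p = 0.0456) and RT1-S2 in ventral SKPs (0.95, adjusted p = 0.0477) were called, and 10 and 9 arrays ended these calls when left out.

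Genes that serve class I molecules without carrying member symbols were read from a list. Of its 14 measured genes of class I antigen processing, 9 were higher and 0 lower in SKPs, beside 13.1% and 12.2% of all genes. Their median was 0.65, against -0.02 for all genes. The dorsal count was 4 higher and 1 lower (Psmb10), the facial 8 and the ventral 6, where 16.5%, 19.0% and 24.4% of all genes were called. With the leukocyte covariate the facial count was 1. B2m, the light chain of class I molecules, had 12.54, 11.97 and 12.39 in dorsal SKPs, 12.32, 12.29 and 12.30 in facial SKPs and 12.72, 12.52 and 12.61 in ventral SKPs, against 11.02, 10.95, 11.52 and 11.06 in MSCs. SKP arrays were all above MSC arrays (1.27, SE 0.12, adjusted p = 1.82e-05). Psmb8, a catalytic subunit of the immunoproteasome, had 7.62, 7.76 and 7.31 in dorsal SKPs, 7.58, 8.0 and 7.79 in facial SKPs and 8.12, 8.0 and 7.50 in ventral SKPs, against 6.19, 6.14, 4.31 and 6.73 in MSCs. It did not overlap either (1.90, SE 0.34, adjusted p = 0.00162), and Psmb9, its neighbour in function, rose by 1.27 (SE 0.26, adjusted p = 0.00329). The peptide transporter subunit Tap2 rose by 0.92 (SE 0.16, adjusted p = 0.00117) and its partner Tap1 by 0.54 (SE 0.17, adjusted p = 0.04). The peptide editors Tapbpl (0.93) and Tapbp (0.76) and the proteasome activators Psme1 (0.75) and Psme2 (0.56) completed the 9. Tapbp lost its call without MSC array 3 or 4 (highest adjusted p of 0.097) and Tap1 without any array other than dorsal array 2, MSC array 1 or MSC array 2 (highest 0.127). With MSC arrays 3 and 4 left out 4 of the 14 were called, and with the leukocyte marker mean as a covariate 5. B2m, Psmb8, Tap2 and Tapbpl were called in both of these fits (highest adjusted p of 0.000583, 0.0183, 0.0107 and 0.0364), and Tap1 in neither (0.536 and 0.165).

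**Figure D4:**
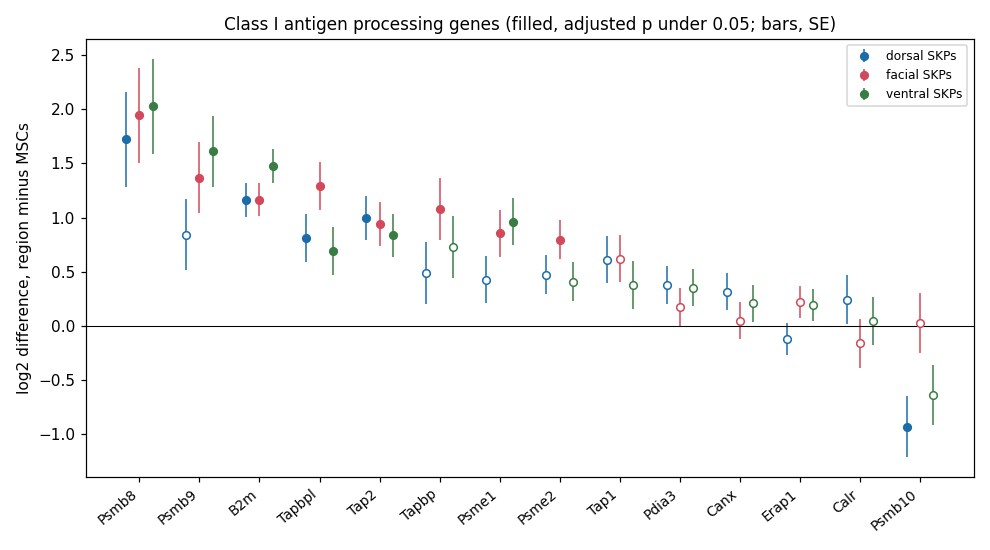
Log2 difference from MSCs (y axis, bars for the SE) of 14 genes of class I antigen processing (x axis) in dorsal SKPs, facial and ventral SKPs, with filled points for an adjusted p under 0.05. Psmb8, B2m, Tapbpl and Tap2 are filled in all 3 regions, between 0.69 and 2.03, and Psmb10 is filled below 0 in dorsal SKPs alone.

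Class II genes were not called in SKPs as a class (0 of 8 by limma, median 0.07). At limma's unadjusted p under 0.05 the one that passed was RT1-DMb (limma, unadjusted p = 0.0408), and it was called without facial array 2 (1.91, adjusted p = 0.0226) and with dorsal array 3 and facial array 3 left out (1.36, adjusted p = 0.0228). In facial SKPs RT1-DMb, the beta chain of the chaperone that exchanges peptides on class II molecules, was called. It had 7.19, 5.31 and 9.89 there, 6.41, 4.89 and 3.76 in dorsal and 4.51, 4.64 and 5.33 in ventral SKPs, against 4.19, 3.91, 4.47 and 4.29 in MSCs. The 3 facial isolates spread over more than 4 units (difference from MSCs 3.25, SE 0.86, adjusted p = 0.0209), and the call was lost without facial array 3 (2.03, adjusted p = 0.064). Its alpha chain partner RT1-DMa had 8.56, 7.60 and 6.18 in dorsal SKPs, 8.49, 7.82 and 10.79 in facial SKPs and 7.13, 7.12 and 7.41 in ventral SKPs, against 8.01, 8.11, 7.21 and 8.94 in MSCs. MSCs lay amid the SKPs here (-0.17, SE 0.54, adjusted p = 0.856). Both chains followed the leukocyte marker mean within the facial and dorsal isolates, highest on facial array 3 and lowest on dorsal array 3. With that mean as a covariate the facial difference of RT1-DMb turned to -0.53 (adjusted p = 0.6), and RT1-DMa was called lower in SKPs as a class (-1.52, adjusted p = 0.0164). That mean also separated facial SKPs from MSCs, so this fit does not test the part of leukocytes in the result.

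The peptide-presenting class II chains were not called in any comparison. RT1-Ba, the alpha chain of RT1-B, had 3.79, 4.18 and 3.85 in dorsal SKPs, 3.55, 3.08 and 6.09 in facial SKPs and 3.98, 5.10 and 4.84 in ventral SKPs, against 3.32, 3.37, 3.74 and 3.41 in MSCs. RT1-Bb, its beta chain, had 4.62, 4.61 and 4.08 in dorsal SKPs, 4.35, 4.55 and 5.74 in facial SKPs and 3.95, 4.96 and 5.70 in ventral SKPs, against 4.78, 4.35, 4.51 and 3.83 in MSCs. Facial array 3 was the highest for both, with ventral arrays 2 and 3 next, and neither was called (0.82, adjusted p = 0.211, and 0.36, adjusted p = 0.474). RT1-Db1, a beta chain of RT1-D, ran from 3.69 to 4.73 on SKP arrays and from 4.06 to 4.62 on MSC arrays. RT1-DOa and RT1-DOb, the chains of the molecule that restrains DM, ran from 4.58 to 4.94 and 3.60 to 4.46 on SKP arrays and from 4.61 to 4.92 and 3.70 to 4.08 on MSC arrays. RT1-Ha ran from 3.18 to 3.46 and from 3.20 to 3.51. Ciita, the master activator of class II genes, was not called (-0.19, SE 0.09, adjusted p = 0.162).

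Among 10 measured genes of class II antigen processing, Ifi30 included, 5 were higher in SKPs and 0 lower, beside 13.1% and 12.2% of all genes. That count was 2 with the leukocyte covariate, 2 with MSC arrays 3 and 4 left out and 3 to 7 with 1 array left out, and the facial count of 5 was 0 with the covariate. Cathepsin S (Ctss), which trims the invariant chain, had 8.17, 5.92 and 3.78 in dorsal SKPs, 9.13, 7.16 and 11.23 in facial SKPs and 5.81, 6.40 and 6.62 in ventral SKPs, against 4.96, 4.71, 3.81 and 3.41 in MSCs. Its order over the SKP isolates was that of the leukocyte markers within dorsal and facial skin. The invariant chain Cd74 ran otherwise, with 5.94, 6.53 and 4.16 in dorsal SKPs, 4.22, 5.46 and 8.90 in facial SKPs and 7.53, 8.99 and 8.91 in ventral SKPs, against 4.39, 3.85, 4.69 and 5.23 in MSCs. All ventral isolates were high, as was facial array 3, and ventral SKPs were called (3.93, SE 0.93, adjusted p = 0.00883). The call of Cd74 in SKPs as a class (2.19, adjusted p = 0.0457) failed when dorsal array 1 or 2, ventral array 2 or 3 or any MSC array was omitted (highest adjusted p of 0.125). That of Ctss (2.92, adjusted p = 0.0168) failed when MSC array 4 was omitted (0.0603).

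**Figure D5:**
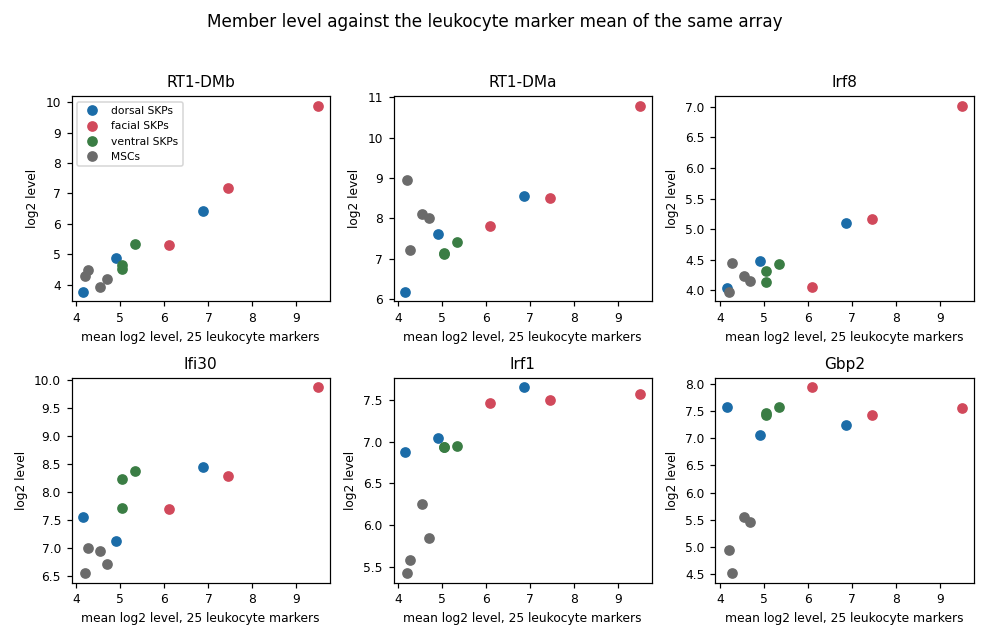
Log2 level of 6 genes (y axis) against the mean log2 level of 25 leukocyte markers on the same array (x axis), with 1 point for each of the 13 arrays coloured by group. RT1-DMb, Irf8 and Ifi30 reach their highest level on facial array 3 at a marker mean of 9.49, while Irf1 and Gbp2 are high on all 9 SKP arrays, including dorsal array 3 with a mean of 4.16.

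Differences between regions were few. Facial SKPs differed from dorsal ones in 1 gene, which was higher (1.25% of all genes called, 0.793% higher and 0.462% lower). They differed from ventral ones in 3, with 1 higher and 2 lower (6.6% of all genes, 2.25% higher and 4.36% lower), and dorsal SKPs differed from ventral ones in 5 (6.11% of all genes, 2.35% higher and 3.76% lower). Arrays did not overlap in 16, 31 and 17 of the 85 genes in these comparisons, beside 17.4%, 36.4% and 28.7% of all genes. All 5 genes of the last comparison were lower in dorsal SKPs: Ifitm1 and RT1-S3, given above, Ifitm2 (-1.15, SE 0.29, adjusted p = 0.0405), Stat5b (-0.51, SE 0.12, adjusted p = 0.0257) and Stat3 (-0.50, SE 0.13, adjusted p = 0.0424). Ifitm1 and RT1-S3 kept that call without any single array. Ifitm2 lost it without dorsal array 3, any facial or ventral array, or MSC array 1, 2 or 4 (0.0511 to 0.152), Stat3 without 10 of the 13 arrays (0.0514 to 0.143) and Stat5b without dorsal array 1 or 3 or any ventral array (0.0551 to 0.0888). Stat5b, which relays growth hormone signals, was low in dorsal SKPs (7.72, 7.92 and 7.77) next to facial (8.50, 8.24 and 8.49) and ventral ones (8.31, 8.35 and 8.28), and it was also higher in facial than in dorsal SKPs (0.61, SE 0.12, adjusted p = 0.0284). That last call was lost without dorsal array 1 or 3, facial array 1 or 3 or ventral array 1 or 3 (0.0533 to 0.113). Facial SKPs had more Irf2 than ventral ones (0.71, SE 0.14, adjusted p = 0.0133), a call lost without ventral array 2 (0.056) and with the leukocyte covariate (0.186). They had less Ifi44l (-1.47, SE 0.37, adjusted p = 0.0385), lost without any facial or ventral array or MSC array 2 (0.0543 to 0.153), and less RT1-S3 (-0.87, SE 0.21, adjusted p = 0.0331), lost without facial array 1 or 2 or any ventral array (0.0597 to 0.126).

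Single isolates stood out unequally. Facial array 3 was the highest of the 13 arrays for 24 of the 85 genes (28.2%), where it was the highest for 7.71% of all genes. It lay over 2-fold above the mean of the other two facial arrays in 11 genes (12.9%, against 3.14% of all genes), among them RT1-DMa, RT1-DMb, RT1-Ba, RT1-Bb, Irf5, Irf8 and Ifi47. Dorsal array 3 was the highest for 2 genes (2.35%, against 15.9% of all genes) and lay over 2-fold below the other two dorsal arrays in 6 (7.06%, near the 5.07% of all genes), including Ifitm2, Ifitm3 and Ifi47. MSC array 3 was the highest for none of the 85. MSC arrays 1 and 2 were both above arrays 3 and 4 in 35 of the 85 genes (41.2%, against 26.8% of all genes) and both below in 10 (11.8%, against 20.9%). Arrays 1 and 2 were above arrays 3 and 4 in 19 of 35 effectors, 7 of 14 transcription factors, 9 of 26 class I genes and 0 of 8 class II genes. Of the 26 genes called between SKPs and MSCs, 20 stayed called with MSC arrays 1 and 2 left out and 12 with arrays 3 and 4 left out. Isg15, Ifi47, Ifi44l, Ifih1, Ifitm2 and RT1-S3 were among those lost with arrays 3 and 4 out.

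Further genes of the pathway were read from lists of its parts. Beside their counts for SKPs as a class, 13.1% of all genes were called higher and 12.2% lower. Of 10 receptor and signal transduction genes, 4 were higher in SKPs, a count of 0 with the leukocyte covariate and of 2 with MSC arrays 3 and 4 left out. In facial SKPs 5 were called, where 19.0% of all genes were, and 0 with that covariate. The interferon gamma receptor chain Ifngr1 had 9.01, 8.49 and 8.12 in dorsal SKPs, 8.66, 8.57 and 10.02 in facial SKPs and 9.59, 8.89 and 9.11 in ventral SKPs, against 7.63, 7.55, 7.95 and 8.07 in MSCs. All SKP arrays were above all MSC arrays (1.14, SE 0.26, adjusted p = 0.00736). Its partner Ifngr2 rose by 0.54 (adjusted p = 0.00492) and the kinase Jak1 by 0.58 (adjusted p = 0.00355). With the leukocyte covariate none of the 3 was called (adjusted p of 0.139 for Ifngr1, 0.0869 for Ifngr2 and 0.0776 for Jak1). The feedback inhibitor Socs3 rose by 1.26 (adjusted p = 0.0302), which failed on omitting ventral array 2 or MSC array 3 or 4 (highest 0.109). Of 7 measured ligands 0 rose in SKPs as a class: interferon gamma (Ifng) and interferon beta (Ifnb1) were below background in all 4 groups, and the cytokine Il15 was lower in SKPs (-1.12, SE 0.24, adjusted p = 0.00426). In facial SKPs the cytokine Il18 was higher, with 5.67, 4.01 and 7.35, against 2.43, 2.66, 2.77 and 2.68 in MSCs (3.04, SE 0.73, adjusted p = 0.0125). All MSC values of Il18 were below the background level of 2.96, so the size of this difference is not resolved on their side. No ligand was called in facial SKPs with the leukocyte covariate. Of 11 nucleic acid sensors and their adaptors 4 were higher, namely Tlr7 (1.95), Tlr3 (1.16), Ikbke (0.68) and Myd88 (0.54), a count of 1 with the leukocyte covariate or with MSC arrays 3 and 4 left out. Of these, Tlr3 kept its call without any single array, Ikbke lost it without MSC array 3 or 4 (highest adjusted p of 0.081), and Tlr7 and Myd88 lost it without any of 7 arrays, MSC arrays 3 and 4 among them (highest 0.0875 and 0.138). Of 34 other interferon-stimulated genes 9 were higher and 1 lower, with a median of 0.08. The share called in either direction was near the 25.3% of all genes. Tap1 is among the 9 and was also counted with the class I processing genes. Lgals3bp (1.08, SE 0.18, adjusted p = 0.00095), a secreted glycoprotein, and the partners Parp9 (0.84) and Dtx3l (0.83) rose. The antiviral gene Rsad2 (-0.09, adjusted p = 0.49) and the chemokine Cxcl10 (0.11, adjusted p = 0.535), both strongly induced in most interferon responses, were not called, and Tnfsf10, the death ligand TRAIL, fell (-0.48, adjusted p = 0.0159), a change that failed on omitting MSC array 2 or 3 (highest 0.0592).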

How the data were processed

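RNA of 13 cultures was hybridised to Affymetrix Rat Gene 1.0 ST arrays, and the deposited table holds log2 values that the authors made by RMA in Affymetrix Expression Console, per the labels and the submitters' processing notes. It has 29215 probe sets, of which 15310 carried 1 symbol in the platform annotation, 323 several and 13582 none. Probe sets with several symbols were left out, and each of 14506 genes was read from its probe set of highest mean across all 13 arrays. 1 further gene of the families is not reported here. Arrays had medians of 4.91 to 5.01 and were not scaled again. Their number limits the precision.

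Group means were fitted with limma 3.58.1 in R 4.3.3 (lmFit, eBayes) on all arrays and genes, with 7 contrasts and Benjamini-Hochberg adjustment over all genes. The 3 isolates of a region and the 4 of MSCs are the replicates, which the labels call independent, so p-values measure the spread between isolates. The fit was tested on simulated data. Genes with a called difference of 1 or more and a fixed set (Irf1, Irf7, Irf9, Isg15, Mx1, Mx2, Usp18 and class II genes) have their value on each array, and the others are given by range. The genes and lists were chosen with earlier results of these data known. Alternatives were a mean-variance trend, a filter on low values, median centring, quantile normalization, averaged probe sets, only the arrays compared, the replicate number as a block, the leukocyte marker mean as a covariate, each array left out in turn, and 3 pairs of arrays left out. Same-numbered isolates showed little shared deviation from their group means: of 18 pairs, 1 had a correlation over 0.1 (dorsal and facial array 2, 0.20). With 3 or 4 arrays a group this cannot exclude a shared animal or batch. The reported fit did not pair them.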

Additional observations from a re-analysis of the deposited data

Results flagged for a closer look

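Between regions, 9 differences in 7 genes passed limma's test of the difference itself. Dorsal SKPs were below ventral SKPs in Ifitm1 (-2.66, adjusted p = 0.00633), Ifitm2 (-1.15, adjusted p = 0.0405), RT1-S3 (-1.15, adjusted p = 0.0103), Stat5b (-0.51, adjusted p = 0.0257) and Stat3 (-0.50, adjusted p = 0.0424). Facial SKPs were below ventral SKPs in Ifi44l (-1.47, adjusted p = 0.0385) and RT1-S3 (-0.87, adjusted p = 0.0331) and above them in Irf2 (0.71, adjusted p = 0.0133). Facial SKPs exceeded dorsal SKPs in Stat5b (0.61, adjusted p = 0.0284).

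In 4 of 43 genes examined in MSCs, 1 array lay far from the other 3 by Dixon's test: RT1-CE13 was highest on MSC array 1 (5.58), Irf2 lowest on MSC array 3 (6.20), Oas1f highest on MSC array 2 (3.71) and Stat3 lowest on MSC array 3 (9.21). Chance alone gives about 1 such group in 20.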

How the results depend on the processing

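Genes called between SKPs and MSCs numbered 26 in the reported fit, 20 to 28 with 1 array left out, 11 with the leukocyte marker mean as a covariate and 14 with MSC arrays 3 and 4 left out. For dorsal SKPs against MSCs the count of 10 became 7 to 12 with 1 array left out and 6 with only the arrays compared. The facial count of 23 became 15 to 25 with 1 array left out, with 15 without facial array 3, and 4 with the leukocyte covariate. The ventral count of 20 became 12 to 21 with 1 array left out. Between facial and dorsal SKPs the count of 1 became 0 to 2 with 1 array left out. It was 0 with median centring, only the arrays compared, the leukocyte covariate, or dorsal array 3 and facial array 3 left out, and 2 with MSC arrays 1 and 2, or 3 and 4, left out. Between facial and ventral SKPs the count of 3 became 0 to 4 with 1 array left out, 7 with only the arrays compared and 1 with the leukocyte covariate. Between dorsal and ventral SKPs the count of 5 became 2 to 5 with 1 array left out, 3 with quantile normalization, 3 with dorsal array 3 and facial array 3 left out, 2 with only the arrays compared and 2 with the replicate block. The replicate block gave 18, 12, 19, 15, 1, 2 and 2 genes in the 7 comparisons. The facial difference of RT1-DMb turned to -0.53 with the leukocyte covariate. The causes of these changes were not tested. Of 2466 alternative values of 105 single-gene results, 2118 kept direction and side of the threshold, 337 lost the call, 10 gained one and 1 reversed. Only the arrays compared could not be applied to SKPs as a class. Genes near background, such as Ifit1 and Oas1d, allow no statement about small differences.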
